A study of Mus musculus with 31 samples.

Results

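The hypoxia-inducible factor (HIF) subunits and the enzymes that sense oxygen for them were followed through RNA sequencing of Panc02 cells, a murine pancreatic adenocarcinoma line. The set held 10 genes, chosen by symbol: the α subunits *Hif1a*, *Epas1* and *Hif3a*, the partner subunits *Arnt* and *Arnt2*, the recognition subunit of the HIF ubiquitin ligase *Vhl*, the prolyl hydroxylases *Egln1*, *Egln2* and *Egln3*, and the asparaginyl hydroxylase *Hif1an*. Each of the 10 had 1 row in each of 3 count tables, among 55487 to 56980 genes per table, and the tables held 31 libraries.

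The first experiment grew Panc02 spheroids in Matrigel in control medium (Ctrl), in conditioned medium of untreated macrophages (M0-CM) or in that of macrophages treated with IFNγ and LPS (M1-CM), with 3 libraries each. The second compared WT cells with cells labelled KO, which carry a CRISPR disruption of the chemokine gene *Cxcl5* (*Cxcl5*-/-), in flat (2D) and in spheroid (3D) culture, with 3 libraries in each of the 4 groups. The last, the overexpression experiment, was grown only in 3D and held 2 libraries of WT, 2 of KO, 3 of KO cells with a retroviral, stabilized mutant *Hif1a* cDNA (Hif1a OE) and 3 of KO cells with a retroviral *Myc* cDNA (Myc OE). The KO cells were made with a lentiviral guide and puromycin selection, the sources used here do not call them a single clone, and both overexpression groups carry the KO as well. No library has an empty-vector label, so each overexpression group is read against KO cells.

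Levels are given as CPM, the usual depth-scaled count of a gene, with library sizes adjusted by the trimmed mean of M-values (TMM). Log2 fold changes, written with their standard error after ± where it is given, and adjusted p-values come from edgeR's quasi-likelihood test with Benjamini-Hochberg adjustment over all genes tested in a table. A gene is said to rise or fall where that adjusted p was under 0.05. Total counts ranged from 41542533 to 78498230 per library, so that *Hif1a* was read in 6574 to 28428 counts per library and *Vhl* in 1547 to 7972. The cell line labels of the overexpression libraries run from Panc03 to Panc12, a different name for each library, and were taken as Panc02, the line into which, by the methods of the study, the overexpression constructs were brought. As a check of an epithelial tumour line, the keratin *Krt8* lay at 227 to 410 CPM in Ctrl and 360 to 374 CPM in 2D WT, which are labelled Panc02. The keratin *Krt18* lay at 33.3 to 66.0 and 176 to 212 CPM there, and *Krt7* and *Krt19* at or under 2.75 CPM. The mesenchymal gene *Vim* was higher, at 2200 to 2500 and 2680 to 3010 CPM. The epithelial adhesion genes *Epcam* and *Cdh1* were at 0 in both groups and at or under 0.609 CPM elsewhere. These values do not identify the line of the overexpression libraries.

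The RNA of the targeted gene was not lower in every KO group. *Cxcl5* lay between 24.5 and 28.5 CPM in 3D WT and between 40.9 and 65.5 CPM in the libraries labelled 3D KO, a rise of 0.91 on the log2 scale (edgeR adjusted p = 0.000173). In 2D it was 45.6 to 49.1 CPM in WT and 32.7 to 37.4 CPM in KO (edgeR adjusted p = 0.0705), and in the overexpression experiment 64.2 to 67.7 CPM in WT and 36.6 to 40.2 CPM in KO (log2 fold change −0.78, edgeR adjusted p = 0.00107). The counts do not show whether the protein was lost. The study reports that its *Cxcl5* knockout was verified with a CXCL5 immunoblot, which is not analysed here. A further 2 libraries stood apart: both WT libraries of the overexpression experiment had a count in 43037 to 43048 genes, against 26886 to 31338 in the other 8 libraries of that table.

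HIF is a pair of an α subunit and the constitutive subunit ARNT. When oxygen is present the prolyl hydroxylases (PHD2, encoded by *Egln1*; PHD1, by *Egln2*; PHD3, by *Egln3*) mark the α subunit for VHL and the proteasome, and FIH, encoded by *Hif1an*, blocks its coactivator contact. *Egln1* and *Egln3* are themselves textbook HIF target genes, so the pathway holds a feedback arm, and most control of HIF-1α is on the protein, which RNA counts do not measure.

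Because *Egln1* and *Egln3* moved together below, their upstream DNA is shown first, with that of *Hif1a* and of the hydroxylases *Egln2* and *Hif1an*, both of which moved the other way in 3D WT. The windows come from RefSeq on the GRCm38.p6 build and run 5′ to 3′ on the gene's strand, ending at the base before the start site, except that of *Egln1*, which is printed for 210 bases and stops 40 bases before it. Capitals mark the core of the hypoxia response element, ACGTG or GCGTG on either strand (CACGT or CACGC when read in reverse).
*Egln1*, chr8:124949295-124949504, minus strand: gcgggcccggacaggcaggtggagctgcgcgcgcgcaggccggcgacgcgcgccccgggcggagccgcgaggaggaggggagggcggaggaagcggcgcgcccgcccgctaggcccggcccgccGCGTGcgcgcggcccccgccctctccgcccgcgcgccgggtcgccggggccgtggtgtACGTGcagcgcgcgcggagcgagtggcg
*Egln3*, chr12:54203875-54204124, minus strand: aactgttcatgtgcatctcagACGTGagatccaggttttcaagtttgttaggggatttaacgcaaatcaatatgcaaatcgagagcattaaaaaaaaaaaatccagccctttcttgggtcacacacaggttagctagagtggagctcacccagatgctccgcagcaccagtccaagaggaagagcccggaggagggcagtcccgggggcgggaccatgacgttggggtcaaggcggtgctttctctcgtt
*Hif1a*, chr12:73907617-73907866, plus strand: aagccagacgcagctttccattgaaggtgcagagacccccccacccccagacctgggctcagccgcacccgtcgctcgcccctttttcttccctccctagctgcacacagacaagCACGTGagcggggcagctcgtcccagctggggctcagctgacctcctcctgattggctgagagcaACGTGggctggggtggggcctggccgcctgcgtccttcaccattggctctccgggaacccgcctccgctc
*Hif1an*, chr19:44562604-44562853, plus strand: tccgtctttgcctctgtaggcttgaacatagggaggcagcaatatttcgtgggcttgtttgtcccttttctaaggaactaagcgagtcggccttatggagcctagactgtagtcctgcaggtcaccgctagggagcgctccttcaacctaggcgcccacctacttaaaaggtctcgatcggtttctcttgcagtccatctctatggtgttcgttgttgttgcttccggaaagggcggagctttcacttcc
*Egln2*, chr7:27166803-27167052, minus strand: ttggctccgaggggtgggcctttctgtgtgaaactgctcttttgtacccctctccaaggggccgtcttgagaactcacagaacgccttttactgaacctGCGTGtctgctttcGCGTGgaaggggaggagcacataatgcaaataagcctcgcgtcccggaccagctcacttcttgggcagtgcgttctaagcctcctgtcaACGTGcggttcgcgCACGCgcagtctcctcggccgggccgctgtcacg
The *Egln1* window held GCGTG 126 bases and ACGTG 68 bases before the start site. The *Egln3* window held ACGTG 229 bases before it. In the *Hif1a* window CACGT and ACGTG overlapped at 135 and 134 bases within the palindrome CACGTG, and a further ACGTG lay 70 bases before the start. This window lies inside the *Hif1a* gene model used for exon length, which begins further upstream, at chr12:73901375. The *Egln2* window held 4 matches, the most of the members with an entry, at 151, 137, 48 and 34 bases before the start, and a window before a second start of *Egln2* held 1. The *Hif1an* window held none. The 2 genes that fell in 3D WT thus had the most matches and none. Whether a match goes with the direction of change was not tested. Of all 32851 promoters in the table, 38.6% held a match in the same 250 bases, and of the 9 members with an entry 6 did (*Hif1a*, *Hif3a*, *Arnt*, *Egln1*, *Egln2* and *Egln3*) and 3 did not (*Vhl*, *Arnt2* and *Hif1an*). A match of 5 letters is a description of the window and not a bound site.

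Passing from 2D to 3D, WT cells changed 9 of the 10 genes, and the 2 inducible hydroxylases moved most among the well-expressed members. *Egln1* lay at 84.0, 86.6 and 82.5 CPM in 2D WT and at 384, 301 and 335 CPM in 3D WT. *Egln3* lay at 79.6, 88.7 and 81.8 CPM in 2D WT and at 374, 325 and 352 CPM in 3D WT. Every 3D library was thus far above every 2D library for both, with a 4.03-fold rise of *Egln1* (log2 fold change 2.01 ± 0.12, edgeR adjusted p = 2.77e-08) and a 4.20-fold rise of *Egln3* (log2 fold change 2.07 ± 0.12, edgeR adjusted p = 1.48e-08). Of the 9 members tested 7 rose and 2 fell, where 44.3% of the 21367 genes tested were called. The median log2 fold change of the tested members was 0.99, beside 0.00 (0.002) over all genes.

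**Figure D1:**
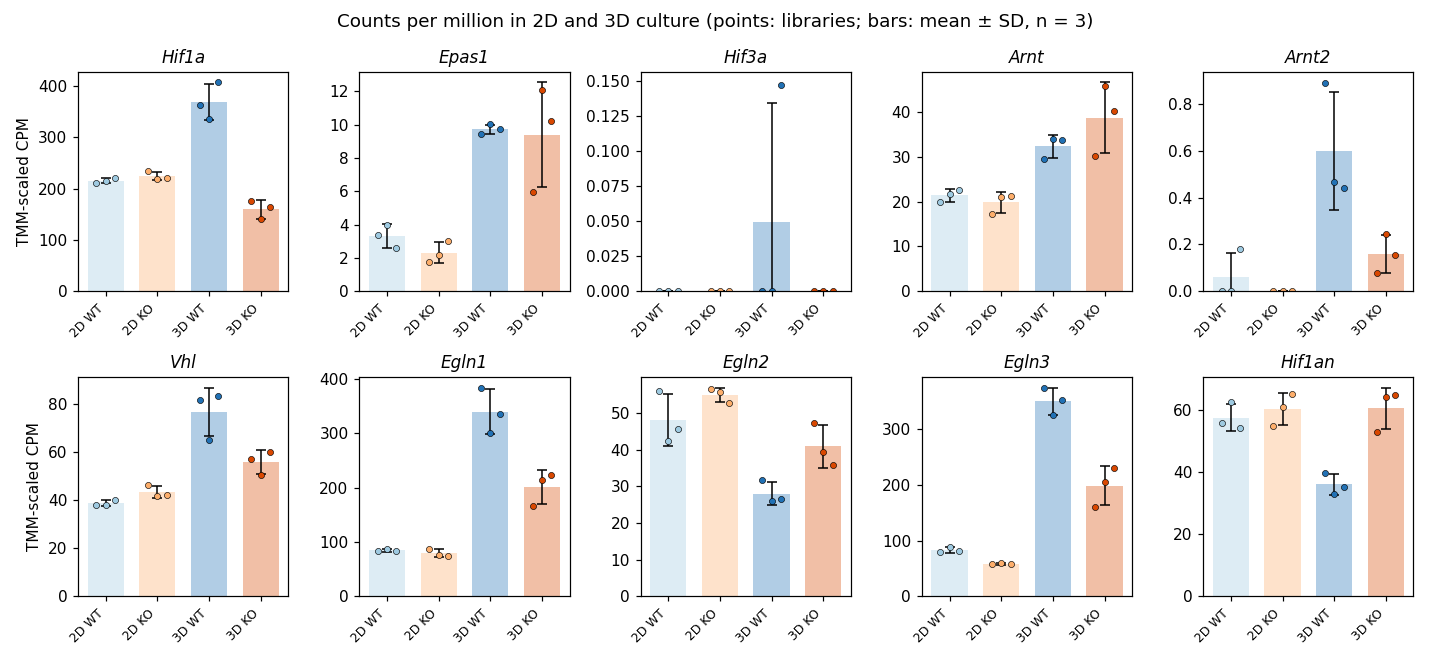
TMM-scaled CPM (vertical axes, linear and from 0) of each of the 10 genes in 2D and 3D culture, with WT in blue and the libraries labelled KO in orange. Points are libraries and bars are means with SD (n = 3); *Hif1a* reached 336 to 407 CPM in 3D WT alone, while *Egln1* and *Egln3* were high in both 3D groups.

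The α subunits rose as well. *Hif1a*, the ubiquitous α subunit, went from 211, 215 and 221 CPM in 2D WT to 363, 336 and 407 CPM in 3D WT, with no overlap (1.71-fold, log2 fold change 0.78 ± 0.10, edgeR adjusted p = 1.81e-05). *Epas1*, which encodes HIF-2α, went from 3.39, 3.97 and 2.59 CPM to 9.46, 10.02 and 9.72 CPM, also without overlap (2.94-fold, log2 fold change 1.55 ± 0.26, edgeR adjusted p = 0.00021). *Hif3a* had counts in 1 of the 12 libraries, 8 counts in 3D WT replicate 3, and was below the count filter. Scaled by exon length, *Epas1* made up 1.60% ± 0.351 (SD, n = 3) of the sum of *Hif1a* and *Epas1* in 2D WT and 2.73% ± 0.300 in 3D WT, so that *Hif1a* remained the predominant α subunit message.

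*Arnt* rose from 21.4 ± 1.40 to 32.4 ± 2.55 CPM (SD, n = 3; log2 fold change 0.60, edgeR adjusted p = 0.00285), a call that is lost with scaling by library totals (log2 fold change 0.38, edgeR adjusted p = 0.0958). *Arnt2*, its neural paralogue, had 0, 0 and 13 counts in 2D WT and 46, 20 and 24 counts in 3D WT. The libraries do not overlap, but the call (edgeR adjusted p = 0.0321) was lost when any 1 of 5 libraries of the 6 was left out (edgeR adjusted p 0.0572 to 0.112), the exception being 2D WT replicate 3. *Vhl* lay at 38.0, 38.1 and 40.4 CPM in 2D WT and at 82.0, 65.1 and 83.4 CPM in 3D WT, a 1.98-fold rise (log2 fold change 0.99 ± 0.10, edgeR adjusted p = 2.77e-06).

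The other 2 hydroxylases fell. *Egln2*, the member of the PHD family that hypoxia is not known to induce, went from 56.1, 42.5 and 45.7 CPM in 2D WT to 31.6, 25.9 and 26.5 CPM in 3D WT (log2 fold change −0.78 ± 0.12, edgeR adjusted p = 0.000162). *Hif1an* went from 55.9, 62.4 and 54.2 CPM to 39.7, 33.1 and 35.3 CPM (log2 fold change −0.68 ± 0.10, edgeR adjusted p = 0.000116). For both genes every 3D WT library was below every 2D WT library. With length taken into account, *Egln2* supplied 23.9% ± 3.25 of the summed PHD message in 2D WT and 4.23% ± 0.182 in 3D WT, and *Egln3* supplied 43.5% ± 2.59 and 55.8% ± 1.29 (SD, n = 3 each).

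Around these genes, the 24 classical HIF targets, a list with *Car9*, *Vegfa*, *Slc2a1* and *Bnip3* but without *Egln1* and *Egln3*, had 23 that rose and none that fell in 3D WT, with a median log2 fold change of 2.47. *Adm*, a vasodilator peptide gene, rose by 6.08 and *Car9*, which encodes a pH-regulating carbonic anhydrase, by 6.29 on the log2 scale; *Pfkfb4* was not called (−0.15). Among 10 genes of the VHL ligase and of PHD turnover 4 rose and 2 fell (median 0.23): *Siah2*, a ubiquitin ligase for PHD enzymes, rose by 0.85, and *Cul2*, the ligase scaffold, had a log2 fold change of −0.44. Of 6 chaperone and turnover genes 3 fell and none rose, among them *Hsp90aa1* at −1.05. Of 6 coactivators and inhibitors 5 were tested and 1 rose, the CBP/p300 competitor *Cited2* at 0.94. Of 9 other bHLH-PAS genes, the family of ARNT, 6 were tested, of which 4 rose and 1 fell (median 0.41). Of 12 other oxygen-using dioxygenases, 4 of which also stand in the target list (*Kdm3a*, *P4ha1*, *P4ha2* and *Plod2*), 7 rose and 1 fell (median 0.98). Beside these counts, 22.2% of all genes tested rose and 22% fell in this comparison, and the lists were not tested.

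In the libraries labelled KO the same step from 2D to 3D turned *Hif1a* the other way. It went from 234, 218 and 221 CPM in 2D KO to 175, 140 and 163 CPM in those labelled 3D KO, which were all below those of 2D (log2 fold change −0.49 ± 0.10, edgeR adjusted p = 0.000643). The hydroxylases *Egln1* (87.5, 75.9 and 74.5 CPM against 165, 214 and 223 CPM) and *Egln3* (58.1, 60.7 and 57.4 CPM against 160, 206 and 230 CPM) rose in the same libraries, by 2.53-fold and 3.38-fold (edgeR adjusted p = 6.29e-07 and 3.47e-08). In all 6 members rose (with the low-count *Arnt2*), 2 fell and *Hif1an* was not called, and 57% of the 21367 genes were called in this comparison. The median log2 fold change of the tested members was 0.97 and that of all genes 0.11.

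*Epas1* rose in the libraries labelled 3D KO, from 1.78, 2.16 and 3.00 CPM in 2D KO to 5.95, 12.1 and 10.2 CPM (log2 fold change 2.02 ± 0.26, edgeR adjusted p = 1.69e-05). *Arnt* rose by 0.97 and *Vhl* by 0.37 on the log2 scale (edgeR adjusted p = 4.4e-05 and 0.00615), and *Egln2* had a log2 fold change of −0.43 (edgeR adjusted p = 0.00917). *Arnt2* had no count in 2D KO and 5, 14 and 10 counts in the libraries labelled 3D KO, at least 3.41-fold higher against a floor of 3 counts per library. Its call (edgeR adjusted p = 0.0117) came from the fit that also held the WT libraries. With the compared groups alone, or with at least 10 counts in every sample, it was below the count filter and not tested. *Hif1an* had 54.9, 61.0 and 65.2 CPM in 2D KO, and the libraries labelled 3D KO overlapped with them at 52.9, 64.0 and 64.7 CPM (log2 fold change 0.00, 95% interval −0.20 to 0.20). Among the classical targets 22 of 24 rose and 1 fell, with a median log2 fold change of 1.47, where 28.7% of all genes rose and 28.2% fell.

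**Figure D2:**
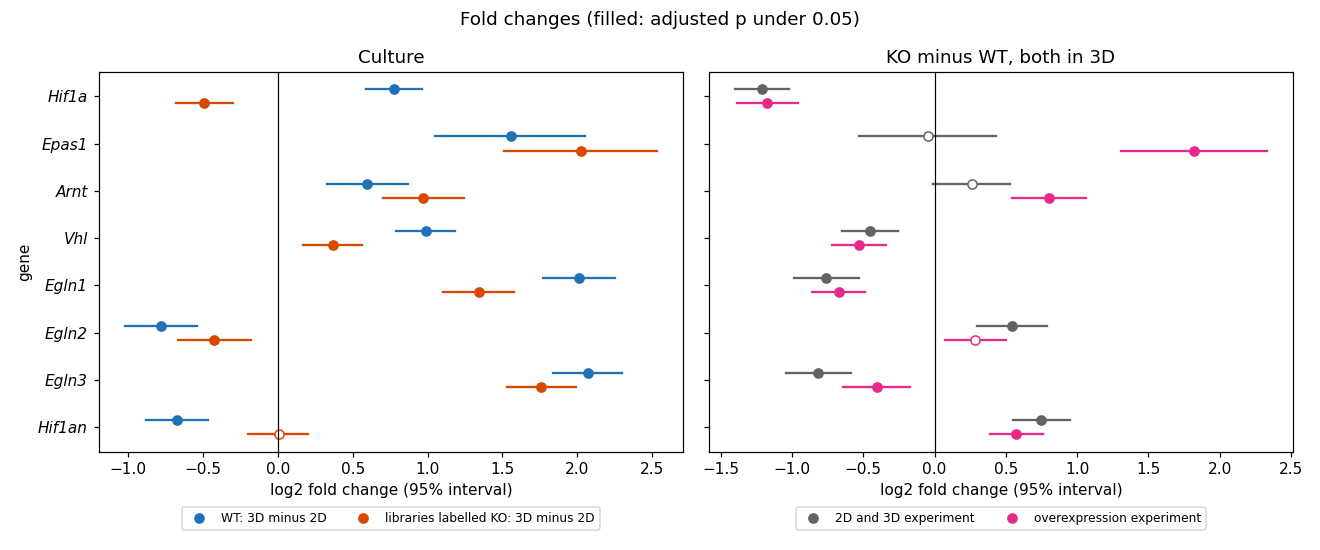
Log2 fold changes (horizontal axes) with approximate 95% intervals of all members but *Hif3a* and *Arnt2*, for 3D minus 2D in WT (blue) and in libraries labelled KO (orange) on the left, and for KO minus WT in 3D in the second (grey) and the overexpression (pink) experiment on the right. Filled points had an adjusted p under 0.05; *Hif1a* lies on opposite sides of 0 on the left, at 0.78 and −0.49, and *Epas1* is the member whose points stand apart on the right, at −0.05 and 1.82.

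In 2D few members differed between the genotypes, and few of all genes did. Only *Egln3* was called, at 79.6, 88.7 and 81.8 CPM in WT and 58.1, 60.7 and 57.4 CPM in KO, without overlap (log2 fold change −0.51 ± 0.12, edgeR adjusted p = 0.0149), while 7.03% of the 21367 genes were called. That call was lost with library totals (edgeR adjusted p = 0.0726) and without 2D WT replicate 2 or 3 or 2D KO replicate 1 or 3 (edgeR adjusted p 0.0507 to 0.0793). *Hif1a* differed by 0.06 on the log2 scale (95% interval −0.13 to 0.25) and *Egln1* by −0.09 (−0.32 to 0.15). The others were *Epas1* at −0.52 (edgeR adjusted p = 0.32), *Arnt* at −0.11, *Vhl* at 0.16, *Egln2* at 0.19 and *Hif1an* at 0.07. *Arnt2* had 13 counts in 1 2D WT library and none in the other 2D libraries, and *Hif3a* had none in any of them. The per-length ratio of *Egln3* to *Egln1* was 1.33 ± 0.0528 in 2D WT and 1.005 ± 0.0957 in 2D KO (SD, n = 3). Of the 24 classical targets 1 rose and 3 fell. The medians were −0.09 over the tested members and −0.01 (−0.015) over all genes.

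Between the 3D groups, *Hif1a* was 2.31-fold lower in the libraries labelled 3D KO than in 3D WT, with a gap between 336 CPM, the lowest 3D WT library, and 175 CPM, the highest of the other group (log2 fold change −1.21 ± 0.10, edgeR adjusted p = 4.13e-07). *Egln3* (log2 fold change −0.82, edgeR adjusted p = 6.36e-05), *Egln1* (−0.76, adjusted p = 0.000171) and *Vhl* (−0.46, adjusted p = 0.002) were lower as well. The constitutive hydroxylase *Egln2* (0.55, adjusted p = 0.00273) and *Hif1an* (0.75, adjusted p = 5.67e-05) were higher, and the sample ranges of these 6 genes did not overlap. With 45% of the 21367 genes called, 2 members rose, 4 fell and *Epas1*, *Arnt* (0.26, edgeR adjusted p = 0.14) and *Arnt2* (−1.92, edgeR adjusted p = 0.145) were not called; the median over the tested members was −0.46 and that over all genes −0.04.

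Scaling mattered here, since TMM factors were 0.82 to 0.912 in 3D WT and up to 1.22 in the libraries labelled 3D KO. By library totals the median of all genes moved from −0.04 to 0.35, *Hif1a* stayed lower (−0.82) but *Egln1* (−0.36, edgeR adjusted p = 0.0596) and *Vhl* (−0.07, edgeR adjusted p = 0.578) lost their calls, while *Arnt* gained one (0.67, edgeR adjusted p = 0.00735). The library labelled 3D KO replicate 1 had the highest *Cxcl5* (65.5 CPM) and the lowest *Epas1* (5.95 CPM) of its group. Without it *Arnt* was called (log2 fold change 0.38, edgeR adjusted p = 0.0172). With it kept, *Arnt* was also called with at least 10 counts in every sample (0.36, edgeR adjusted p = 0.0422) and with a replicate block (0.25, edgeR adjusted p = 0.0472).

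Marker genes moved with these groups. The 8 epithelial and ductal markers summed to 855 to 1100 CPM in 3D WT and 223 to 240 CPM in the libraries labelled 3D KO, most of it keratins, and the list had 2 genes that rose and 3 that fell. The 7 fibroblast and mesenchymal markers went both ways, with 3 that rose and 3 that fell. Their sum of 3680 to 4230 CPM in 3D WT and 1120 to 1270 CPM in the other group was mostly *Vim* (means of 3810 and 700 CPM), and *Dcn* was lower too (37.7 and 2.82 CPM), whereas *Pdgfra* (21.3 and 214 CPM), *Pdgfrb* (88.3 and 206 CPM) and *Acta2* (9.2 and 42.8 CPM) were higher. Their part in the member values was not tested, and in bulk RNA fewer cells of a type and less RNA per cell cannot be told apart. The 8 macrophage and leukocyte markers summed to 42.6 to 47.0 CPM in 3D WT and 43.4 to 63.3 CPM in the libraries labelled 3D KO. Of the 6 tested 1 rose and none fell. *Ptprc* stayed at or under 0.646 CPM in both groups, while *Lyz2* had means of 2.73 and 11.7 CPM and *Cd14* 36.6 and 34.6 CPM. Over all genes 19.7% rose and 25.3% fell.

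*Epas1* was 9.73 ± 0.280 CPM in 3D WT and 9.41 ± 3.14 CPM in the libraries labelled 3D KO (SD, n = 3), a log2 difference of −0.05 with a 95% interval of −0.53 to 0.43. The length-scaled share of *Epas1* among the 2 α subunits was 5.99% ± 2.45 in the libraries labelled 3D KO against 2.73% ± 0.300 in 3D WT. The summed PHD message per *Hif1a* message, also per length, was 3.79 ± 0.401 in 3D WT and 5.44 ± 1.16 in the libraries labelled 3D KO.

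Of the 24 classical HIF targets 23 fell and none rose in this comparison, with a median log2 fold change of −1.12; *Pdk1* was not called (−0.18). The coactivators *Ep300* (0.85), *Crebbp* (0.96) and *Ncoa1* (0.66) and the inhibitor *Ing4* (0.32) rose, and *Cited2* fell (−0.86), so that 4 of 5 tested genes of that list rose. Of the 10 ligase and PHD turnover genes 6 fell, including both elongins *Elob* and *Eloc* (−0.69 each) and *Siah2* (−1.21), and 1 rose, *Usp20*, a deubiquitinase (0.38). Of the 12 other dioxygenases 7 fell and none rose (median −0.42). Of the 6 chaperone and turnover genes 3 fell (median −0.43), and of the 6 tested bHLH-PAS genes 3 fell (median −0.48). Over all genes tested in this comparison 19.7% rose and 25.3% fell, and the lists were not tested.

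The interaction, which asks whether the KO effect differed between 3D and 2D, was past the threshold for 4 of 9 tested members, where 27.2% of the 21367 genes were (medians 0.35 over the members and −0.05 over all genes). The KO effect was more negative in 3D for *Hif1a* (log2 difference −1.27 ± 0.14, edgeR adjusted p = 2.43e-05), *Egln1* (−0.67 ± 0.17, edgeR adjusted p = 0.0101) and *Vhl* (−0.62 ± 0.14, edgeR adjusted p = 0.00541), and more positive for *Hif1an* (0.68 ± 0.15, edgeR adjusted p = 0.00384). *Egln3* missed the threshold (−0.31, edgeR adjusted p = 0.174), as did *Epas1* (0.47), *Arnt* (0.37), *Egln2* (0.35) and *Arnt2* (edgeR adjusted p = 0.311, with no counts in 2D KO). By library totals the interactions of *Egln1* (−0.28, edgeR adjusted p = 0.336) and *Vhl* (−0.25, edgeR adjusted p = 0.167) were lost, those of *Arnt* (0.76) and *Egln2* (0.71) were gained, and those of *Hif1a* and *Hif1an* remained called. Leaving out 3D KO replicate 1 brought in *Arnt* (0.47, edgeR adjusted p = 0.0367) and leaving out 3D KO replicate 3 brought in *Egln3* (−0.47, edgeR adjusted p = 0.0429).

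Over the 12 libraries of these 4 groups, the genes whose log2 CPM ran most like *Hif1a* (14442 genes, mean count 50 or more), were *Wwtr1* (Pearson r = 0.991), *Rnf141*, *Tmem41b*, *Insig1* and *Ptgs2* (0.98). Those most like *Egln3* were *Tbl2* (0.989), *Scd1* (0.989), *Egln1* (0.987), *P4ha2* (0.987) and *Hsd17b7* (0.986). Those most like *Epas1* were *Plxna3*, *Tgfb1*, *Tcf4* (0.985 each), *Cic* and *Zfp395* (0.983 each). These values describe 12 points that fall into 4 groups and share libraries and scaling. Within the set, *Hif1a* had r = 0.408 with *Egln3* and −0.865 with *Hif1an*, whereas *Epas1* had 0.936 with both *Egln3* and *Arnt*.

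The overexpression experiment repeated the comparison of WT and KO in 3D with its own libraries. *Hif1a* lay at 304 and 324 CPM in WT and at 144 and 133 CPM in KO (2.26-fold lower, log2 fold change −1.18 ± 0.11, edgeR adjusted p = 1.04e-05). *Egln1* (255 and 236 against 162 and 146 CPM), *Egln3* (253 and 249 against 199 and 181 CPM) and *Vhl* (45.8 and 48.3 against 33.7 and 31.4 CPM) were lower in both KO libraries. Their log2 fold changes were −0.67, −0.40 and −0.53 (edgeR adjusted p = 0.000198, 0.0198 and 0.00114). The *Egln3* call was lost when any 1 of the 4 libraries was left out (edgeR adjusted p 0.0509 to 0.15). *Hif1an* rose, from 43.8 and 43.0 to 64.0 and 65.2 CPM (log2 fold change 0.57, edgeR adjusted p = 0.000535), and *Egln2* had 28.4 and 29.0 CPM in WT and 33.0 and 36.9 CPM in KO (log2 fold change 0.28, edgeR adjusted p = 0.0539). In all 3 members rose, 5 fell and 2 were not called, where 41.9% of the 28730 genes tested in this table were called; the median of the members was −0.47 and that of all genes −0.30. Of the 24 classical targets 23 fell, with a median of −1.30. The epithelial and ductal markers summed to 861 to 907 CPM in WT and 294 to 310 CPM in KO here. Of the 7 fibroblast and mesenchymal markers 5 rose and 1 fell (median 1.89): *Pdgfra* had means of 11.6 CPM in WT and 110 CPM in KO, *Dcn* 4.52 and 61.4 CPM, *Acta2* 5.97 and 38.7 CPM, and *Vim* 3340 and 556 CPM. Of the 7 epithelial markers tested 1 rose and 3 fell. The part of these markers in the member values was not tested.

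*Epas1* differed from the second experiment. It lay at 2.93 and 4.02 CPM in WT and at 11.6 and 12.9 CPM in KO, a 3.52-fold rise without overlap (log2 fold change 1.82 ± 0.26, edgeR adjusted p = 0.000231), and its share of the α subunit message per length went from 1.15% ± 0.200 to 8.55% ± 0.981 (SD, n = 2). In a fit over the libraries of both experiments, a comparison added after seeing the data, in which 8.98% of 30441 genes were called, the KO effect on *Epas1* was 1.77 higher on the log2 scale in the overexpression experiment than in the second (SE 0.38, edgeR adjusted p = 0.00489), and *Epas1* was the only one of the 10 members called. The other 9 had adjusted p from 0.205 (*Arnt*, difference 0.44) to 1, and *Hif1a* differed by −0.08 (SE 0.15). WT of the second experiment had 9.73 CPM of *Epas1* and WT of the overexpression experiment 3.48 CPM, while the KO groups stood at 9.41 and 12.3 CPM. *Arnt* rose in KO as well, from 32.0 and 33.2 to 57.5 and 56.0 CPM (log2 fold change 0.80, edgeR adjusted p = 0.00068).

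*Hif3a*, whose product can restrain the other α subunits, was detected best in WT of this experiment, with 36 and 51 counts (0.794 and 1.11 CPM) against no count in either KO library, at least 15.5-fold higher against a floor of 3 counts per library (edgeR adjusted p = 0.0125). The call was lost when either KO library was left out (edgeR adjusted p = 0.0612 and 0.0623). The same 2 WT libraries are those with a count in at least 43037 genes, and they also held low counts of markers of several other cell types. All 4 endothelial markers were present in both, summing to 2.40 to 3.50 CPM against 0.325 to 0.332 CPM in KO. The leukocyte gene *Ptprc* was at 1.54 to 1.92 CPM against 0.104 to 0.122 CPM. Of the 7 pancreatic acinar and endocrine markers 4 had a count in both WT libraries, against 1 in both KO libraries. All 8 macrophage and leukocyte markers were present in WT, summing to 44.5 CPM against 34.6 to 34.8 CPM in KO, most of it *Cd14*. Of the 7 tested 1 rose and 4 fell in KO, and *Cd68* had means of 6.29 CPM in WT and 9.75 CPM in KO. The part of these libraries' broad low counts in the *Hif3a* and *Arnt2* values was not tested. *Arnt2* had 24 and 45 counts in WT and 17 and 0 counts in KO and was not called (edgeR adjusted p = 0.255).

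**Figure D3:**
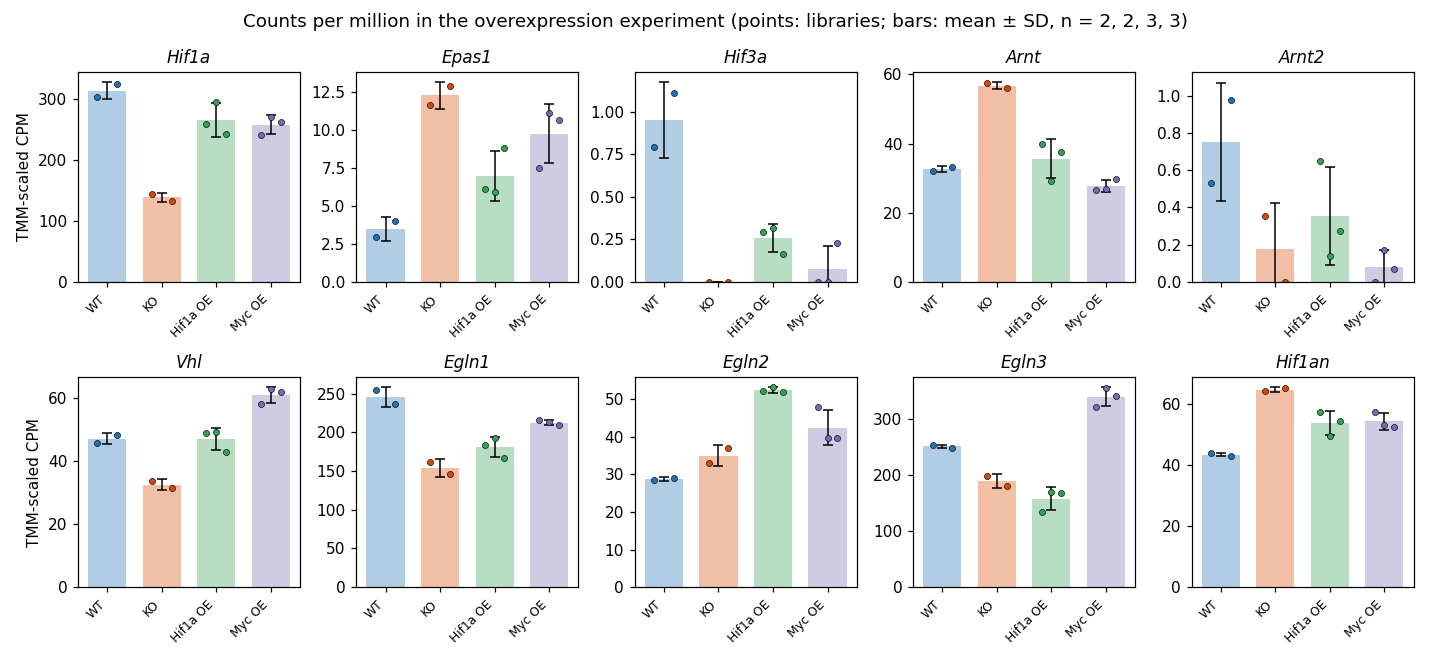
TMM-scaled CPM (vertical axes, linear and from 0) of each of the 10 genes in the 3D overexpression experiment: WT (blue, n = 2), KO (orange, n = 2), Hif1a OE (green, n = 3) and Myc OE (purple, n = 3), with libraries as points and means with SD as bars. *Hif1a* is alike in Hif1a OE and Myc OE at means of 266 and 258 CPM, while *Egln3* separates them at 158 and 340 CPM.

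The libraries labelled Hif1a OE had 258, 296 and 243 CPM of *Hif1a*, all above KO (1.92-fold, log2 fold change 0.94 ± 0.10, edgeR adjusted p = 2.99e-05). Those labelled Myc OE, which received no *Hif1a* cDNA, had 241, 271 and 262 CPM, a 1.86-fold rise over KO (log2 fold change 0.90 ± 0.10, edgeR adjusted p = 3.08e-05). The 2 groups overlapped and differed by 0.04 on the log2 scale (95% interval −0.13 to 0.21, edgeR adjusted p = 0.826), and Hif1a OE did not pass the test against WT (−0.24, edgeR adjusted p = 0.0999), a difference that was called with DESeq2 (−0.38, adjusted p = 0.000213). Gene counts pool endogenous and retroviral *Hif1a* reads, so the 2 sources cannot be told apart. The epithelial and ductal markers summed to 709 to 841 CPM in Hif1a OE and 271 to 315 CPM in Myc OE. Of the 7 epithelial markers tested 3 were higher and 1 was lower in Hif1a OE than in Myc OE. Of the 7 fibroblast and mesenchymal markers 1 was higher and 4 were lower in Hif1a OE, with means of 5.77 and 149 CPM for *Pdgfra* and 2.73 and 97.5 CPM for *Acta2*. Over all genes 9.73% were higher and 9.54% lower, and the part of these markers was not tested. *Myc* itself was 397 to 548 CPM in Myc OE and at most 22.3 CPM in KO.

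Between Hif1a OE and KO, 4 members rose, 3 fell and 3 were not called, with 35.5% of the 28730 genes called and medians of 0.38 for the members and 0.16 for all genes. *Vhl* rose from 33.7 and 31.4 CPM to 49.0, 49.1 and 43.0 CPM (log2 fold change 0.53, edgeR adjusted p = 0.000626) and *Egln2* from 33.0 and 36.9 CPM to 52.3, 53.2 and 51.7 CPM (0.58, edgeR adjusted p = 0.00074). *Egln2* is thus higher in Hif1a OE than in both WT and KO. The inducible hydroxylases did not pass the test: *Egln3* lay at 134, 170 and 169 CPM, below both KO libraries (−0.27, edgeR adjusted p = 0.0748), and *Egln1* at 183, 192 and 167 CPM, above both (0.23, edgeR adjusted p = 0.0559). With DESeq2 both were called, with the same signs (−0.31, adjusted p = 0.0121, and 0.19, adjusted p = 0.0258). *Epas1* fell to 6.10, 5.91 and 8.84 CPM (−0.82, edgeR adjusted p = 0.0138), a call lost without KO replicate 2 (−0.73, edgeR adjusted p = 0.0982), and *Arnt* fell to 40.0, 29.2 and 37.7 CPM (−0.67, edgeR adjusted p = 0.000991). *Hif1an* fell by 0.27 on the log2 scale (edgeR adjusted p = 0.027), and this was lost without either KO library or without Hif1a OE replicate 2 (edgeR adjusted p 0.0692 to 0.187). *Hif3a* had 15, 18 and 9 counts, at least 4.17-fold higher than the floor of 3 counts per KO library (edgeR adjusted p = 0.0395), and was lost when any library but Hif1a OE replicate 3 was left out (edgeR adjusted p 0.0691 to 0.15). Of the 24 classical targets 17 rose and 1 fell, *Plod2* (−0.49), with a median of 0.88. *Arnt2*, with 33, 8 and 15 counts, was not called (edgeR adjusted p = 0.602).

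Between Myc OE and KO, 5 members rose and 2 fell, with 39.6% of the genes called and medians of 0.37 for the members and 0.11 for all genes. *Egln3* reached 322, 356 and 341 CPM, above every other library of the experiment (log2 fold change 0.84 against KO, SE 0.11, edgeR adjusted p = 9.8e-05), and *Vhl* reached 58.1, 62.8 and 62.0 CPM (0.91, edgeR adjusted p = 1.13e-05). *Egln1* rose to 215, 213 and 209 CPM (0.47, edgeR adjusted p = 0.00119) and lost its call with library totals (0.13, edgeR adjusted p = 0.253). *Egln2* rose by 0.28 (edgeR adjusted p = 0.0431), lost without KO replicate 1, KO replicate 2 or Myc OE replicate 1 (edgeR adjusted p 0.0671 to 0.288) and of opposite sign with library totals (−0.06). With DESeq2 *Egln2* was not called (0.25, adjusted p = 0.0527). *Arnt* fell to 26.5, 27.0 and 29.6 CPM (−1.04, edgeR adjusted p = 3.57e-05). *Hif1an* fell by 0.25 (edgeR adjusted p = 0.0328), which did not last without either KO library or Myc OE replicate 2 or 3 (edgeR adjusted p 0.0804 to 0.203). *Epas1* lay at 7.51, 11.1 and 10.7 CPM, below both KO libraries, and did not pass (−0.33, edgeR adjusted p = 0.261). *Hif3a* had 0, 0 and 13 counts and *Arnt2* 0, 8 and 4 counts, and neither was called. Of the 24 classical targets 17 rose and 1 fell, again *Plod2* (−0.69), with a median of 0.93; the comparison shares its KO libraries with that of Hif1a OE.

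Set against each other, the 2 overexpression groups differed in 4 members, with 19.3% of the genes called and medians of 0.01 for the members and 0.01 (0.015) for all genes. *Egln3* was 2.16-fold lower in Hif1a OE (log2 fold change −1.11 ± 0.10, edgeR adjusted p = 1.43e-05) and *Vhl* 1.30-fold lower (−0.38, edgeR adjusted p = 0.00538). *Egln2* (0.30, edgeR adjusted p = 0.0311) and *Arnt* (0.36, edgeR adjusted p = 0.0383) were higher in Hif1a OE, and the ranges of *Arnt* overlapped. *Egln1* (−0.23, edgeR adjusted p = 0.0573), *Epas1* (−0.49, edgeR adjusted p = 0.128), *Hif1an* (−0.02, edgeR adjusted p = 0.935), *Hif3a* (edgeR adjusted p = 0.389) and *Arnt2* (edgeR adjusted p = 0.293) did not pass, and DESeq2 called *Egln1* lower in Hif1a OE (−0.25, adjusted p = 0.0011). The calls of *Egln2* and *Arnt* were lost when single libraries were left out: *Egln2* without Hif1a OE replicate 1, 2 or 3 or Myc OE replicate 2 or 3 (edgeR adjusted p 0.059 to 0.125), and *Arnt* without Hif1a OE replicate 1 or 3 or Myc OE replicate 1 or 2 (edgeR adjusted p 0.114 to 0.146). The length-scaled ratio of *Egln3* to *Egln1* was 1.18 ± 0.188 in Hif1a OE and 2.16 ± 0.125 in Myc OE (SD, n = 3), beside 1.38 ± 0.0567 in WT and 1.67 ± 0.0146 in KO (SD, n = 2). Among the classical targets *Car9* rose in Myc OE against KO by 4.38 on the log2 scale and was not called in Hif1a OE (0.31); over the list 4 were higher and 9 lower in Hif1a OE than in Myc OE.

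Against WT, all 4 hydroxylases differed in Hif1a OE and 3 of 4 in Myc OE by edgeR. In Hif1a OE, *Egln1* (log2 fold change −0.44, edgeR adjusted p = 0.00395) and *Egln3* (−0.67, edgeR adjusted p = 0.00125) were lower and *Epas1* (1.00, edgeR adjusted p = 0.0128), *Egln2* (0.87, edgeR adjusted p = 0.000183) and *Hif1an* (0.31, edgeR adjusted p = 0.0249) higher, with 24.2% of the genes called and medians of −0.12 for the members and −0.10 for all genes. *Vhl* differed from WT by 0.00 (95% interval −0.17 to 0.17), *Arnt* by 0.13 (edgeR adjusted p = 0.47), and *Hif3a* and *Arnt2* were not called (edgeR adjusted p = 0.269 and 0.543). Without WT replicate 1 the calls of *Epas1* (0.79), *Egln1* (−0.38) and *Hif1an* (0.33) were lost (edgeR adjusted p 0.0695 to 0.142), and *Hif1an* was also lost with DESeq2 (0.17, adjusted p = 0.199), without WT replicate 2 (edgeR adjusted p = 0.158) and without Hif1a OE replicate 1 (edgeR adjusted p = 0.0693). In Myc OE, *Epas1* (1.49), *Egln2* (0.56), *Egln3* (0.44), *Vhl* (0.37) and *Hif1an* (0.32) were higher and *Hif1a* (−0.28, edgeR adjusted p = 0.0488) lower, with 31.8% of the genes called and medians of 0.06 for the members and −0.17 for all genes. *Egln1* did not pass (−0.21, edgeR adjusted p = 0.0874), nor did *Arnt* (−0.23, edgeR adjusted p = 0.166), *Hif3a* (edgeR adjusted p = 0.0555) or *Arnt2* (edgeR adjusted p = 0.0902), and DESeq2 called *Egln1* lower (−0.34, adjusted p = 3.74e-05), on a scale where the median of all genes was −0.30. With library totals *Epas1* lost its call in Hif1a OE (0.83, edgeR adjusted p = 0.0558), and in Myc OE *Vhl* (0.08), *Egln2* (0.27), *Egln3* (0.14) and *Hif1an* (0.03) lost theirs (edgeR adjusted p 0.0629 to 0.863). In Myc OE without WT replicate 1 or 2 only 2 and 3 of these 6 calls were left, and the *Hif1a* call was lost without any 1 of the 5 libraries (edgeR adjusted p 0.0556 to 0.301). With DESeq2 *Hif1an* lost its call in Myc OE too (0.20, adjusted p = 0.0992). DESeq2 called *Arnt* (−0.36, adjusted p = 0.0401) and *Hif3a* (−3.74, adjusted p = 0.0477) lower there. The classical targets had 1 that rose and 14 that fell in Hif1a OE, and 4 rose and 14 fell in Myc OE.

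**Figure D4:**
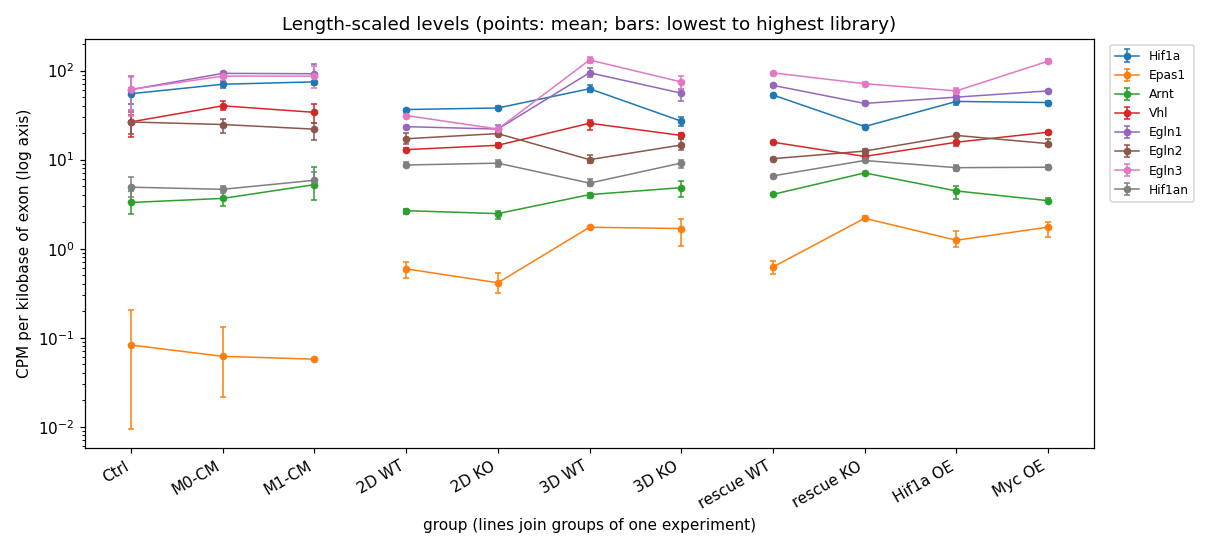
Levels per kilobase of exon (CPM per kb, log axis) of all members but *Hif3a* and *Arnt2* in the 11 groups; points are means, bars run from the lowest to the highest library and lines join groups of 1 experiment (rescue WT and rescue KO are those of the overexpression experiment). *Egln3*, *Egln1* and *Hif1a* lie highest in most groups, and *Epas1* is the lowest of the 8 in all, between 0.0574 and 2.19 CPM per kb.

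Conditioned medium was not seen to move any of the 10 genes. Among 9 tested members none was called in M1-CM against Ctrl, where 0.0156% of the 19207 genes tested were called by edgeR, in M0-CM against Ctrl (0% of genes), or in M1-CM against M0-CM (0.0156% of genes). DESeq2 called none either, and an unadjusted p under 0.05 was reached by 1 member, 1 member and 0 members. *Cxcl5* rose in this table (log2 fold change 2.76 in M1-CM against Ctrl, edgeR adjusted p = 0.000474). *Hif1a* lay at 373, 247 and 354.4 CPM in Ctrl, at 416, 380 and 447 CPM in M0-CM and at 449, 422 and 451 CPM in M1-CM. All treated libraries were above all Ctrl libraries, but the differences (0.44 for M1-CM, SE 0.17, edgeR adjusted p = 0.965; 0.35 for M0-CM, SE 0.17, edgeR adjusted p = 1) did not pass. Over the other tested members log2 fold changes ran from −0.52 (*Epas1*) to 2.22 (*Arnt2*) in M1-CM against Ctrl, from −1.21 (*Arnt2*) to 0.61 (*Egln1*) in M0-CM against Ctrl and from −0.24 (*Vhl*) to 3.43 (*Arnt2*) in M1-CM against M0-CM.

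Ctrl replicate 2 was the lowest Ctrl library for 6 members. It also had the highest total of the table (78498230 counts) and the fewest genes with a count (19448, against 21189 to 23544 in the other libraries). *Egln1* was at 312, 131 and 216 CPM in Ctrl, *Egln3* at 225, 82.4 and 183 CPM and *Vhl* at 88.6, 54.3 and 95.8 CPM, and *Hif1a* (247 CPM), *Arnt* (19.6 CPM) and *Hif1an* (25.2 CPM) were lowest there as well, whereas *Egln2* (94.9 CPM) was highest there. The part of that library in these values was not tested. Without any 1 library, this one included, 0 members were called in each comparison of the table. With M0-CM *Egln1*, *Egln3* and *Vhl* lay at 317 to 345, 205 to 245 and 108 to 136 CPM, and with M1-CM at 247 to 427, 172 to 299 and 77.8 to 127 CPM. The approximate 95% intervals of the M1-CM effect were wide, for example 0.02 to 1.17 around 0.59 for *Egln1* on the log2 scale. That interval leaves out 0, although the unadjusted p of edgeR's test was 0.0725. M1-CM replicate 2 had 66.6 CPM of *Arnt*, against 30.98 and 28.3 CPM in the other 2 libraries. *Epas1* was close to the detection limit in this table, with 3 to 70 counts per library and at most 1.13 CPM. *Hif3a* had 0 to 14 counts and was below the count filter, and *Arnt2* had 0 to 27 counts.

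**Figure D5:**
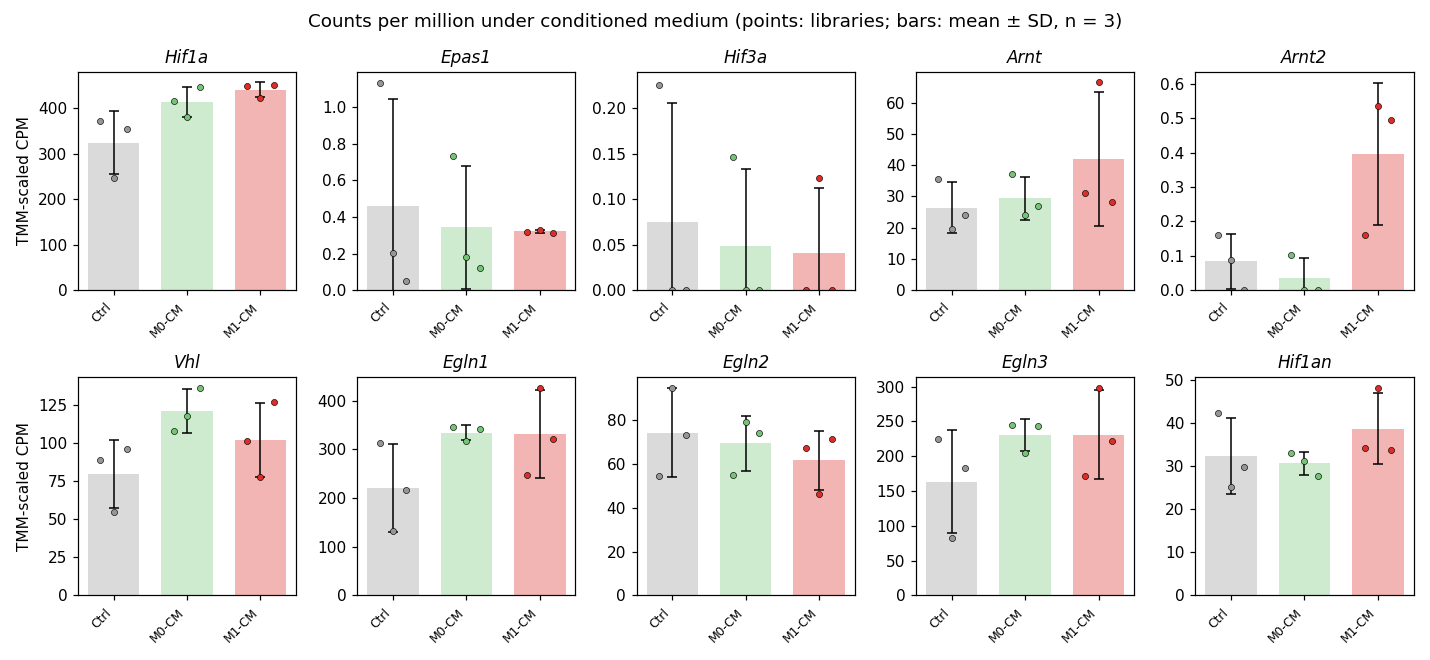
TMM-scaled CPM (vertical axes, linear and from 0) of each of the 10 genes in spheroids kept in control medium (grey), M0-CM (green) or M1-CM (red), with the 3 libraries of a group as points and means with SD as bars. The groups overlap for most genes; Ctrl replicate 2 (middle point) is the lowest for *Egln1* and *Egln3*, at 131 and 82.4 CPM.

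Per length, the sum of the PHD messages was 149 ± 45.03 CPM per kb in control medium, 205 ± 10.1 in M0-CM and 201 ± 45.3 in M1-CM (SD, n = 3), beside 72.0 ± 1.73 in 2D WT, 236 ± 21.8 in 3D WT and 145 ± 19.8 in the libraries labelled 3D KO. These tables were scaled separately, so levels are set side by side here and not tested across them. *Egln2* supplied 20.1% ± 11.97 of this sum in control medium, 12.2% ± 2.58 in M0-CM and 11.6% ± 4.44 in M1-CM. *Hif1a*, *Egln2*, *Hif3a*, *Arnt*, *Arnt2* and *Epas1* overlap another annotated gene, so reads of such a neighbour may be counted in part, whereas *Vhl*, *Egln1*, *Egln3* and *Hif1an* overlap none.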

How the data were processed

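Total RNA of Panc02 cultures was sequenced by the authors from stranded TruSeq libraries, aligned with HISAT2 to the mouse genome (mm10), and assembled and counted per transcript with StringTie. The deposited values are raw whole-number counts per gene, made by the authors. The strand setting, the annotation release and the step from transcript to gene counts are not given in the sources used here. The study tested its counts with DESeq2.

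Here each of the 3 tables (conditioned medium, 2D and 3D, overexpression) was fitted on its own with edgeR 4.0.16 in R 4.3.3: genes were filtered with filterByExpr by group, scaled by TMM and tested with the quasi-likelihood test over all groups of the table, with Benjamini-Hochberg adjustment over all genes tested and a threshold of 0.05. The standard error was taken as the size of the log2 fold change over the square root of F, and 95% intervals from it with a normal quantile. With so few libraries such intervals are too narrow. They can leave out 0 where the unadjusted p of edgeR's test is above 0.05. The difference between the KO effects of the 2 experiments that hold WT and KO was fitted over the libraries of both tables. DESeq2 1.42.0 was an alternative. CPM per kb uses exon lengths of GENCODE M21, and promoter windows are from RefSeq on GRCm38.p6. Folds against a group with no counts use a floor of 3 counts per library and, like all count limits here, cover counting error only. Tables and plots used Python 3.11.15, pandas 2.3.3 and matplotlib 3.10.9, and the scripts were tested on simulated data.

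Groups follow the labels. The named-gene rule takes all 10 members in every comparison (in conditioned medium some only by their range), with *Cxcl5*, *Hif1a* and *Myc* as targeted genes, the other lists by their counts and medians, with their members named as examples, and for *Hif1a*, *Epas1* and *Egln3* the 5 genes with the highest Pearson r of log2 CPM. The members and lists were chosen with earlier results of these data known. Nothing in the labels says that replicates came from separate cultures. The study states for its experiments in general that they had biological replicates, without tying this to single libraries. The p-values therefore measure the spread between these samples, which may be technical. No columns matched no sample (0). Alternatives were DESeq2 or its size factors, library totals, no filter, at least 10 counts in every sample, a replicate block, rows of one symbol summed, the compared groups alone, a limit of 1 on the log2 fold change and leaving out each library. A mean count of at least 10 and a fit without both WT libraries of the overexpression experiment were added after seeing the data.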

Additional observations from a re-analysis of the deposited data

Results flagged for a closer look

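The KO effect on 4 genes differed between 3D and 2D culture by a test of the difference itself, edgeR's interaction term. It was −1.27 on the log2 scale for *Hif1a*, which was lower in each of the 3 libraries labelled 3D KO than in any 3D WT library while the 2D groups overlapped. For *Vhl* the difference was −0.62 and for *Egln1* −0.67, both lost when libraries were scaled by their totals, and for *Hif1an* it was 0.68.

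*Epas1* was singled out because its KO effect was 1.77 higher on the log2 scale in the overexpression experiment than in the second (edgeR adjusted p = 0.00489, and 1.85 with adjusted p = 0.00834 over the 10 libraries of the contrast alone). Genotype effects of the 2 experiments come from separate libraries, and the WT libraries of the overexpression experiment are those that stand apart in their number of genes with a count. Groups of 2 or 3 libraries are too small for a test of single outlying libraries.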

How the results depend on the processing

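Of 65 member values called in the comparisons of groups, 1 changed sign: *Egln2* in Myc OE against KO was −0.061 with library totals, and the cause was not tested. A limit of 1 on the log2 fold change left 4 members in each 2D to 3D comparison, 0 in KO against WT in 2D, 1 for KO against WT in 3D and for the interaction, 3 for KO against WT in the overexpression experiment, 1 for either overexpression group against KO, 1 between them, 0 for Hif1a OE and 1 for Myc OE against WT. With library totals 0 members were called in 2D, and with no filter 2 between the overexpression groups. Leaving out single libraries gave 0 to 1 members in 2D, 4 to 8 for Hif1a OE against KO, 2 to 4 between the overexpression groups, 2 to 6 for Hif1a OE against WT and 2 to 6 for Myc OE against WT. Without both WT libraries 6, 6 and 4 members were called in Hif1a OE against KO, Myc OE against KO and between them. Library totals moved the median of all genes most in 3D KO against 3D WT, from −0.04 to 0.35.

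Deviations of same-numbered libraries correlated from −0.236 to 0.359 over 9 pairs of conditioned medium, −0.096 to 0.18 over 18 pairs of the second experiment and −0.025 to 0.05 over 13 pairs of the overexpression experiment. Libraries with different numbers were not compared, so these values cannot decide whether replicate numbers pair the samples. With a replicate block 9, 8, 1 and 7 members were called in 3D against 2D in WT and in KO and in KO against WT in 2D and 3D, 4 in the interaction, 8 in KO against WT of the overexpression experiment, 9 and 6 in Hif1a OE and Myc OE against KO, 6 between them, 5 and 5 against WT, and 0 in conditioned medium. Depth limits *Hif3a* and *Arnt2*, at 0 to 51 counts per library.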

Other observations

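Counts of the other gene lists around the HIF system in the overexpression experiment stand beside shares of all genes called of 35.5% in Hif1a OE against KO, 39.6% in Myc OE against KO and 41.9% in KO against WT, and the lists themselves were not tested. Of 10 genes of the VHL ligase and PHD turnover 6 rose in Hif1a OE against KO (1 fell, median log2 fold change 0.57) and 6 in Myc OE against KO (2 fell, median 0.72), where 3 rose and 4 fell in KO against WT (median −0.23). Of 5 tested coactivators and inhibitors 3 rose and 1 fell in KO against WT (median 1.16), and 1 rose and 3 fell in each overexpression group against KO (medians −0.90 and −0.76). Of 6 chaperone and turnover genes 4 rose and 1 fell in each overexpression group. Both overexpression comparisons use the same 2 KO libraries.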
